A study of Saccharomyces cerevisiae with 22 samples.

Results

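Chromosome XII of Saccharomyces cerevisiae carries the ribosomal DNA array together with genes for ribosome assembly, respiration, vesicle traffic and telomerase, and the transcript levels of its genes were compared here between groups of cells in which the whole chromosome was or was not shifted. The genes were chosen by position alone: every gene on the array whose systematic name begins with YLL (left arm) or YLR (right arm), except 4 that are not reported here. This gave 532 of the 6225 genes on the array, 65 on the left arm and 467 on the right arm. Of these, 515 were bright enough to be tested, of 5912 tested in all, and the other 17, among them the sporulation genes SPO75, CDA2 and SPO77, were too dim.

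The study set 3 laboratory-evolved lines (B3, D11 and H9) and the ancestor beside each other, each with 1 of 2 plasmids, on 22 one-colour Agilent arrays. The tRNA plasmid is a single-copy LEU2 plasmid with a Candida albicans tRNA that puts serine at leucine CUG codons, so that cells mistranslate. The empty vector (EV) lacks it, and in the evolved lines it replaced the tRNA plasmid after evolution. The groups were B3, D11, H9 and ancestor cells with the tRNA (3 arrays each), D11 and H9 with the EV (3 arrays each), and B3 and the ancestor with the EV (2 arrays each). All are self-diploid cells of the BY4742 background, which is MATα and lacks functional HIS3, LEU2, LYS2 and URA3, and each evolved line is a single colony, so that a line is 1 clone. LEU2, which the plasmids carry, and the MATα genes STE3 and MF(ALPHA)1 were well above background on all 22 arrays, whereas LYS2 was so on 0 of them. HIS3 was above background on 5 arrays and URA3 on 4. The MATa genes STE2 and MFA1 were also above it on all 22, at levels between -4.50 and -2.51, where STE3 and MF(ALPHA)1 lay between 1.71 and 5.57. Where nothing states that replicate arrays came from separate cultures, p-values measure only the spread between these arrays.

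An extra copy of a chromosome usually raises the transcripts of most genes on it, roughly in proportion to the copies. A gene can still depart from that line through its own regulation, for example a feedback loop or a growth- or stress-dependent promoter. The study lists an extra chromosome XII in some of its evolved lines. The arrays measured RNA, so that more copies of a gene and more RNA per copy cannot be told apart here, and the values below are given by the labels of the arrays.

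Levels are log2 signals relative to the median of all spots on the same array, and a change is the difference of 2 group means on that scale. Arrays had median signals between 356 and 2282, and between 85.9% and 95% of their spots were well above background, with 0 saturated. There were 3 arrays that stood apart from the other replicates of their group. The second replicate of D11 with the tRNA had 30 chromosome XII genes more than 1 log2 unit below both other replicates, the third replicate of D11 with the EV had 54, and 28 genes were in both sets. On the third replicate of H9 with the EV, 15 such genes lay below and 26 lay above. The other 15 arrays of groups with 3 replicates had between 0 and 4 below. The same was seen on 11 chromosomes taken as unchanged in copy number (I, II, III, VI, VIII, X, XI, XIII, XIV, XV and XVI), where 5.25% of genes were that low on the D11 array with the tRNA and 9.63% on that with the EV. ISA1, which assembles iron-sulfur clusters in mitochondria, shows the size of the drop: it had 2.87, -1.71 and 2.73 in D11 with the tRNA and 2.89, 3.36 and -0.97 in D11 with the EV. Counts below are therefore given with all arrays, and the main ones again without these 3.

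Chromosome XII as a whole was shifted upwards in B3, in D11 and in the ancestor with the tRNA, and was not shifted in H9. For each array the median difference of its 515 genes from the mean of the ancestor with the EV was taken, and the same median over the 3582 genes of the 11 other chromosomes was subtracted. This shift was 0.522 ± 0.0045 in B3 with the tRNA (SD, n = 3) and 0.513 ± 0.0008 in B3 with the EV (n = 2). It was 0.538 ± 0.019 in D11 with the tRNA and 0.538 ± 0.039 in D11 with the EV (n = 3 each). In this order the median gene had 1.44, 1.43, 1.45 and 1.45 times its level in the ancestor with the EV, where 3 copies in place of 2 would give 1.5-fold. In H9 the shift was -0.0007 ± 0.0099 with the tRNA and -0.0097 ± 0.016 with the EV (n = 3 each), so that both groups lay at the level of the ancestor with the EV.

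The ancestor with the tRNA had a shift of 0.460 ± 0.024 (n = 3), or 1.38-fold, against 0 in the ancestor with the EV (n = 2). The medians of the 15 other chromosomes in this group lay between -0.117 and -0.058, so that no other chromosome was above 0 in the arrays labelled as the ancestor with the tRNA. The shift separated these 3 arrays from both arrays of the ancestor with the EV without overlap, as it did for every array of B3 and D11. Without the subtraction, the shift was 0.457 in B3 and 0.504 in D11, both with the EV, and 0.373 in the ancestor with the tRNA, each minus the ancestor with the EV. Exact two-sided permutation tests gave p = 0.333 for B3 and p = 0.1 for D11 and for the ancestor with the tRNA, and each is the smallest p that the numbers of arrays allow. For H9 with the EV the difference was -0.056 (exact permutation p = 0.4). Within a line, the tRNA minus the EV gave -0.02 in B3, -0.01 in D11 and 0.01 in H9 (exact permutation p = 0.2, 1 and 0.9). Compared with the ancestor carrying the same tRNA, chromosome XII was 0.064 higher in B3, 0.122 higher in D11 and 0.423 lower in H9 (exact permutation p = 0.1 each, the smallest possible).

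**Figure D1:**
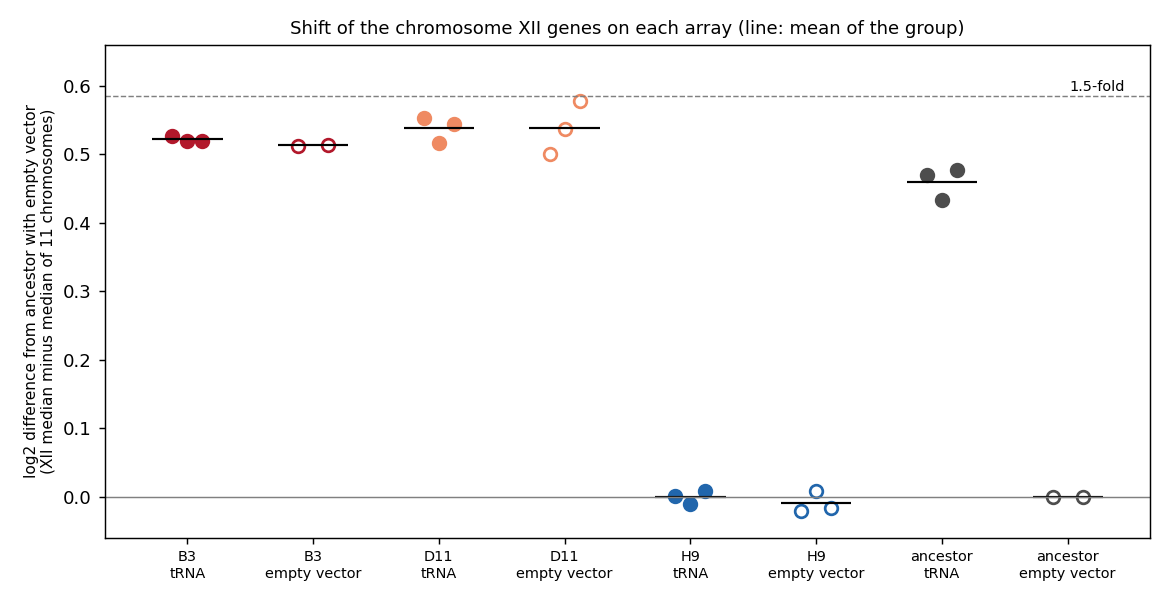
Shift of chromosome XII on each of the 22 arrays, as the median log2 difference of its genes from the ancestor with the empty vector minus the same median over 11 other chromosomes; filled points carry the tRNA, open points the empty vector, lines are group means and the dashed line marks 1.5-fold. All arrays of B3, D11 and the ancestor with the tRNA lie between 0.433 and 0.578, and all arrays of H9 and of the ancestor with the empty vector lie within 0.021 of 0.

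The shift ran along the whole chromosome. When the 515 genes were divided in order into 10 stretches, the median of each stretch stayed between 0.40 and 0.63 in B3 with the tRNA, between 0.41 and 0.57 in B3 with the EV, between 0.46 and 0.62 in D11 with the tRNA and between 0.44 and 0.64 in D11 with the EV. It stayed between 0.37 and 0.61 in the ancestor with the tRNA. In H9 the stretches lay between -0.10 and 0.06 with the tRNA and between -0.05 and 0.02 with the EV. No stretch of the shifted groups came near those of H9. The left arm had a shift of 0.444 to 0.555 and the right arm one of 0.459 to 0.538 in the 5 shifted groups.

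Within the right arm the stretch up to YLR154 (154 genes) was higher than the stretch from YLR155 (297 genes). The medians were 0.606 and 0.467 in B3 with the tRNA, 0.559 and 0.480 in B3 with the EV, 0.615 and 0.497 in D11 with the tRNA, 0.563 and 0.523 in D11 with the EV, and 0.550 and 0.403 in the ancestor with the tRNA. In H9 with the tRNA, whose chromosome was not shifted, they were 0.055 and -0.026, and in H9 with the EV they were -0.025 and -0.009. The 10 outermost genes had medians of 0.497 at the left end and 0.303 at the right end in B3 with the tRNA and of 0.391 and 0.307 in B3 with the EV. They had 0.181 and 0.258 in D11 with the tRNA, 0.215 and 0.251 in D11 with the EV, and 0.445 and 0.348 in the ancestor with the tRNA, so that the right end lay below the whole chromosome in all 5 shifted groups. These subtelomeric genes include near-identical copies, whose probes can pick up RNA from other chromosome ends.

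**Figure D2:**
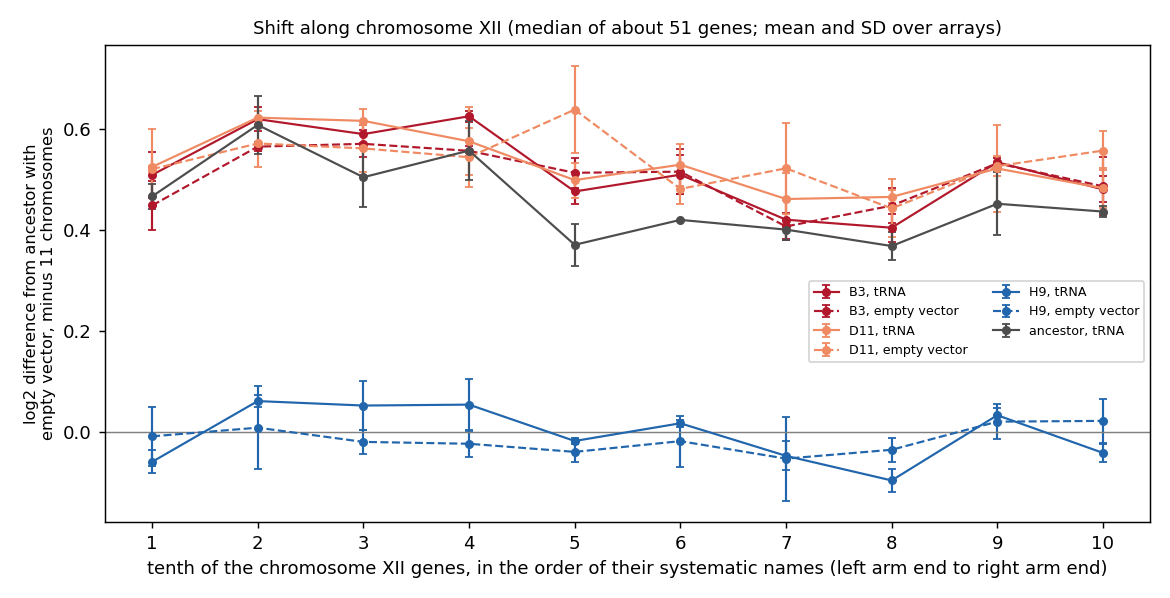
Median shift of consecutive stretches of about 51 chromosome XII genes, from the left arm end to the right arm end, as mean and SD over the arrays of each group, relative to the ancestor with the empty vector and minus 11 other chromosomes. The stretches of B3, D11 and the ancestor with the tRNA stay between 0.37 and 0.64, and those of H9 between -0.10 and 0.06.

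At the level of single genes, the comparison of D11 with H9, both with the tRNA, gave 262 of 515 chromosome XII genes called higher in D11 and 0 called lower (limma, adjusted p below 0.05), against 7.65% and 0.964% of all genes tested. At an unadjusted p below 0.05, 358 were higher and 0 lower. On the 11 other chromosomes 3.41% were called higher. The change was above 0 in 480 of the 515 genes. When the 3 arrays that stood apart were left out, 374 were called higher and 0 lower, against 15.3% and 10.1% of all genes.

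The cells with the EV gave the same direction. B3 against the ancestor had 182 genes higher and 2 lower, where 6.77% and 7.44% of all genes were called, and without the 3 arrays it had 303 higher and 16 lower (18.1% and 19.2% of all genes). D11 against H9 had 302 higher and 8 lower, where 20.3% and 13.4% of all genes were called, and 350 and 6 without the 3 arrays (22.3% and 13.5%). D11 against the ancestor had 268 higher and 12 lower (16% and 14% of all genes). Where the chromosome was not shifted, in H9 against the ancestor, there were 4 higher and 7 lower, where 2.13% and 1.62% of all genes were called. Without the 3 arrays these were 37 and 76 (8.58% and 15.3% of all genes). Between the cells with the tRNA, B3 against H9 had 242 genes higher and 2 lower (10.3% and 7.54% of all genes). H9 against the ancestor with the same tRNA had 1 higher and 180 lower (5.51% and 7.27%), whereas B3 had 6 and 4 (2.91% and 1.62%) and D11 had 37 and 8 (6.34% and 2.22%). With only the 6 arrays of D11 and H9 in the fit, limma called 0 genes higher between them with the EV, and 269 were higher at an unadjusted p below 0.05. With any 1 array of B3 or of the ancestor left out, B3 against the ancestor had 56 to 68 calls, and without either array of the ancestor, D11 against the ancestor had 166 or 167. Without the third array of H9, H9 against the ancestor had 51 calls in either direction, and without the second array of H9 or either array of the ancestor it had 2 to 5.

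B3 against the ancestor with the EV, D11 against H9 with the EV and D11 against H9 with the tRNA share no array. Over these 3 comparisons, 123 of the 515 genes were called higher in all 3, 139 in 2, 99 in 1 and 154 in 0. The first of these is 23.9% of the genes, against 2.44% of all genes tested and 0.335% on the 11 other chromosomes. The change was above 0 in all 3 for 377 genes, or 73.2%, against 22% of all genes and 16.7% on the 11 other chromosomes. It was above 0 in none of them for MEF1, ISA1 and DNM1, a mitochondrial elongation factor, the iron-sulfur assembly protein above and a dynamin of mitochondrial fission, which were named after their values were seen. MEF1 had 1.75, -1.14 and 1.66 in D11 with the tRNA and 1.40, 1.41 and -2.14 in D11 with the EV, so that its mean there rests on the arrays that stood apart. Without them, MEF1, ISA1 and DNM1 changed by 0.54, 0.59 and 0.57 in D11 against H9 with the tRNA (adjusted p = 0.000209, 0.00661 and 0.000384). With the EV these genes then changed by 0.06, 1.06 and 0.01 (adjusted p = 0.586, 0.000226 and 0.945). After the chromosome's median was subtracted on each array, these last values were -0.36, 0.63 and -0.41 (adjusted p = 0.00868, 0.00728 and 0.00653). In B3 against the ancestor with the EV, which holds none of these arrays, the changes of MEF1, ISA1 and DNM1 were -0.06, -0.02 and -0.01, all short of the threshold. With the chromosome's median subtracted and the arrays that stood apart out of the fit, they were -0.49, -0.45 and -0.43 (adjusted p = 0.00125, 0.0354 and 0.00398).

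Around the shift, the genes of chromosome XII spread about as widely as genes elsewhere. After the chromosome's own median was removed, the middle 50% of its genes lay between -0.21 and 0.24 in B3 against the ancestor with the EV, against -0.23 and 0.25 for the 3582 genes of the 11 other chromosomes. For D11 against H9 with the tRNA it lay between -0.13 and 0.21, against -0.10 and 0.24. For D11 against H9 with the EV it lay between -0.23 and 0.43, against -0.29 and 0.38.

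**Figure D3:**
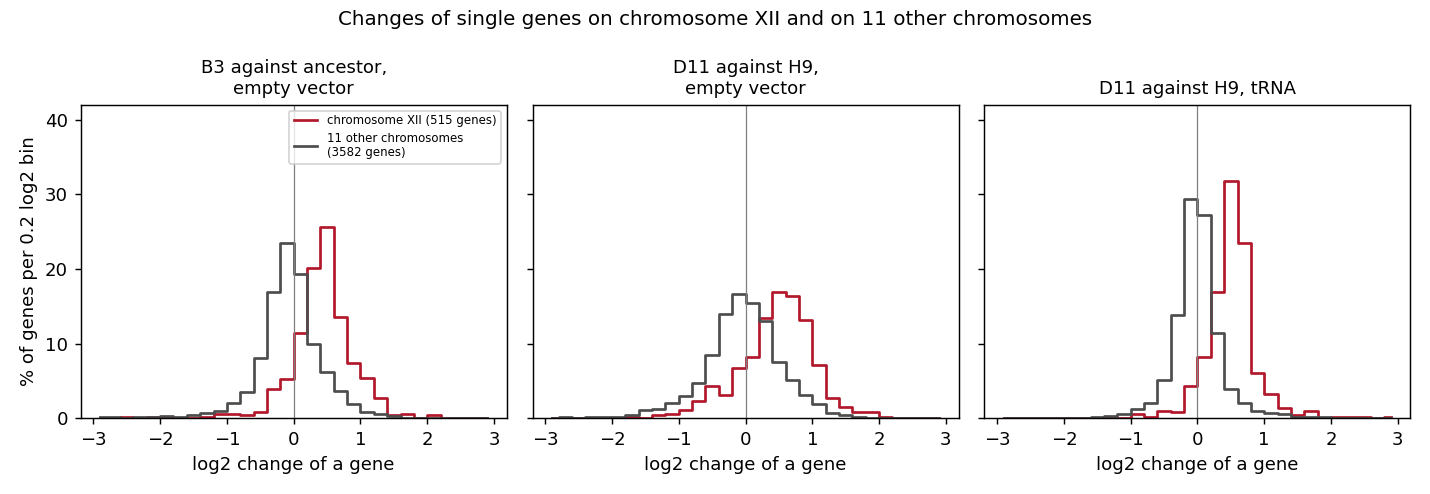
Distribution of the log2 change of single genes, in bins of 0.2, for 515 genes of chromosome XII (red) and 3582 genes of 11 other chromosomes (grey) in the 3 comparisons that share no array. The red curve is displaced to the right in each panel and keeps about the width of the grey one.

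Many genes followed the chromosome. A gene was counted as following when its change was called higher and its departure, the change after the chromosome's median was subtracted on every array, was not past the threshold; this does not show that it equals the median. There were 243 such genes in D11 against H9 with the tRNA, 191 in the same comparison with the EV and 173 in B3 against the ancestor with the EV. In this order, 252, 172 and 311 of the 515 genes met neither this rule nor the threshold for departure and stayed undecided. The share of all genes that would follow by this rule is not given here. Of the 173 and 191 genes, 91 were shared (52.6% and 47.6%), and no such share for other chromosomes is given here.

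PEX13, a docking factor of peroxisomal protein import, is one of them. It had 0.88, 0.96 and 0.83 in B3 with the tRNA, 0.90 and 0.90 in B3 with the EV, 0.81, 0.82 and 0.74 in D11 with the tRNA and 0.73, 0.66 and 0.77 in D11 with the EV. It had 0.30, 0.31 and 0.38 in H9 with the tRNA and 0.30, 0.33 and 0.20 in H9 with the EV. The ancestor had 0.83, 0.89 and 0.98 with the tRNA and 0.51 and 0.36 with the EV. All 14 arrays of the shifted groups were above the other 8. The change was 0.46 ± 0.07 (SE) in D11 against H9 with the tRNA (adjusted p = 0.000468), 0.44 ± 0.07 with the EV (adjusted p = 0.000332) and 0.46 ± 0.09 in B3 against the ancestor (adjusted p = 0.00274).

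SEC10, a subunit of the exocyst that tethers secretory vesicles, behaved alike, with 0.30, 0.26 and 0.20 in D11 against -0.24, -0.23 and -0.26 in H9, both with the tRNA. HOG1, the kinase of the osmotic stress pathway, had 2.25, 2.41 and 2.25 in D11 against 1.61, 1.70 and 1.73 in H9 with the tRNA, a change of 0.62 ± 0.09 (adjusted p = 0.000231). TUB4, the gamma-tubulin of the spindle pole body, had 0.60, 0.59 and 0.54 against 0.01, 0.08 and 0.09 in the same groups. None of these groups overlapped. The same rule gave GAA1, LUG1, SSQ1, STU2, SPP382 and SEC22. Without the arrays that stood apart, HOG1 and TUB4 lay below the chromosome in D11 against the ancestor, both with the EV. Their departures were -0.25 and -0.32 (adjusted p = 0.0209 and 0.0304). Against H9 with the EV, TUB4 then changed by 0.29 and missed the threshold (adjusted p = 0.0697). HOG1 changed by 0.24 there (adjusted p = 0.031). In D11 against H9 with the tRNA, the departures of HOG1 and TUB4 were then 0.07 and 0.01 (adjusted p = 0.571 and 0.977).

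SEC22, a SNARE of traffic between the endoplasmic reticulum and the Golgi, followed in B3 and D11, and lay below the chromosome in the ancestor with the tRNA. It had 2.41, 2.39 and 2.31 in D11 against 1.84, 1.99 and 1.74 in H9, both with the tRNA, and 2.49 and 2.44 in B3 against 2.07 and 2.03 in the ancestor, both with the EV. In the ancestor it had 1.99, 2.13 and 2.06 with the tRNA against the same 2.07 and 2.03 with the EV. These last 2 groups overlapped, and the departure there was -0.37 (adjusted p = 0.0319). The 15 genes listed for vesicle transport as a group stayed near the chromosome: their median change was 0.51 in D11 against H9 with the tRNA, 0.51 with the EV and 0.43 in B3 against the ancestor with the EV. In the first of these 13 were called higher.

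Departures were about as frequent as on other chromosomes, except that more lay above and fewer below in D11 against H9 with the EV. In D11 against H9 with the tRNA, 19 genes lay above the chromosome and 1 below, where 3.58% and 0.29% of all genes did so relative to their own chromosome. In B3 against the ancestor with the EV, 9 lay above and 22 below (2.25% and 4.04% of all genes). As shares of the 515 genes these are 1.75% and 4.27%, against 1.73% and 3.71% on the 11 other chromosomes, and in D11 against H9 with the tRNA they are 3.69% and 0.194%, against 3.6% and 0.307%. In D11 against H9 with the EV, 111 lay above and 41 below (19.1% and 9.83%), or 21.6% and 7.96% of the 515 against 18.2% and 10.4% on the 11 other chromosomes. The B3 and D11 comparisons with the EV had 12 genes below in both, which are 54.5% of the 22 and 29.3% of the 41. The same overlap on other chromosomes is not given here. In all 3 comparisons that share no array, departures were below -0.25 in 3.11% of the 515, against 1.95% on the 11 other chromosomes. They were above 0.25 in 3.69%, against 5.53%. D11 against the ancestor with the EV had 73 above and 48 below (14.7% and 10.4%). The number of departures depended on single arrays. With any 1 array of B3 or the ancestor left out, limma called 0 to 4 in B3 against the ancestor (65 at an unadjusted p below 0.05 in each case of 0), and with any 1 array left out it called 7 to 11 in D11 against H9 with the tRNA. Without the first or the second array of the ancestor, D11 against the ancestor had 27 or 34. Without the 3 arrays that stood apart, the counts were 47 and 35 in D11 against H9 with the tRNA, 80 and 72 in B3 against the ancestor and 125 and 43 in D11 against H9 with the EV. The shares of all genes then were 11.5% and 6.58%, 15.5% and 16.7%, and 19.4% and 11.7%. Those of the 515 genes were 9.13% and 6.8%, 15.5% and 14%, and 24.3% and 8.35%. On the 11 other chromosomes they were 12.3% and 6.34%, 14.9% and 15.9%, and 18.4% and 12.7%.

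EST1, a subunit of telomerase, had about the same level in all 8 groups. It was named after its values were seen, as the 1 gene below the chromosome in D11 against H9 with the tRNA. It had 0.41, 0.56 and 0.55 in B3 with the tRNA and 0.49 and 0.47 in B3 with the EV, 0.49, 0.58 and 0.44 in D11 with the tRNA and 0.49, 0.56 and 0.83 in D11 with the EV. It had 0.49, 0.46 and 0.46 in H9 with the tRNA, 0.46, 0.53 and 0.61 in H9 with the EV, 0.51, 0.52 and 0.62 in the ancestor with the tRNA and 0.56 and 0.50 in the ancestor with the EV. All arrays but the highest lay between 0.41 and 0.62, and the highest is one of those that stood apart.

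The change of EST1 was 0.04 ± 0.09 in D11 against H9 with the tRNA, -0.05 ± 0.11 in B3 against the ancestor with the EV and 0.10 ± 0.09 in D11 against H9 with the EV. Its departure was -0.44 (adjusted p = 0.0308), -0.47 (adjusted p = 0.0448) and -0.28 (adjusted p = 0.0588) in these comparisons. Without the 3 arrays the departures were -0.51, -0.47 and -0.39, with adjusted p = 0.000433, 0.000481 and 0.00237. The genes beside it, named for their position, did not all follow the chromosome. In the same order, TOP3, a topoisomerase gene, changed by 0.41, 0.56 and 0.63 on one side, and on the other BNA5 changed by 1.16, -0.31 and -0.71 and CDC42, for a GTPase of cell polarity, by 0.23, 0.28 and -0.83.

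EST2, the catalytic subunit of telomerase, rose more than the chromosome in B3 with the EV. It had -0.82 and -0.94 in B3 against -1.95 and -2.18 in the ancestor, both with the EV, a change of 1.18 ± 0.14 (adjusted p = 0.000178) and a departure of 0.76 (adjusted p = 0.0111). D11 had -0.75, -1.04 and -0.70 against -1.51, -1.66 and -1.93 in H9 with the EV, a departure of 0.49 (adjusted p = 0.012) that was 0.27 without the 3 arrays and then missed the threshold (adjusted p = 0.112). With the tRNA, D11 had -0.70, -0.70 and -0.85 and H9 had -1.49, -1.46 and -1.56, and the departure of 0.28 did not pass (adjusted p = 0.318). The groups did not overlap in any of these comparisons. Against the ancestor with the EV and without the 3 arrays, EST2 departed by 0.74 in D11 with the EV (adjusted p = 0.000408). It likewise departed by 0.94 in the ancestor with the tRNA and by 0.47 in H9 with the EV (adjusted p = 3.73e-05 and 0.0161).

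**Figure D4:**
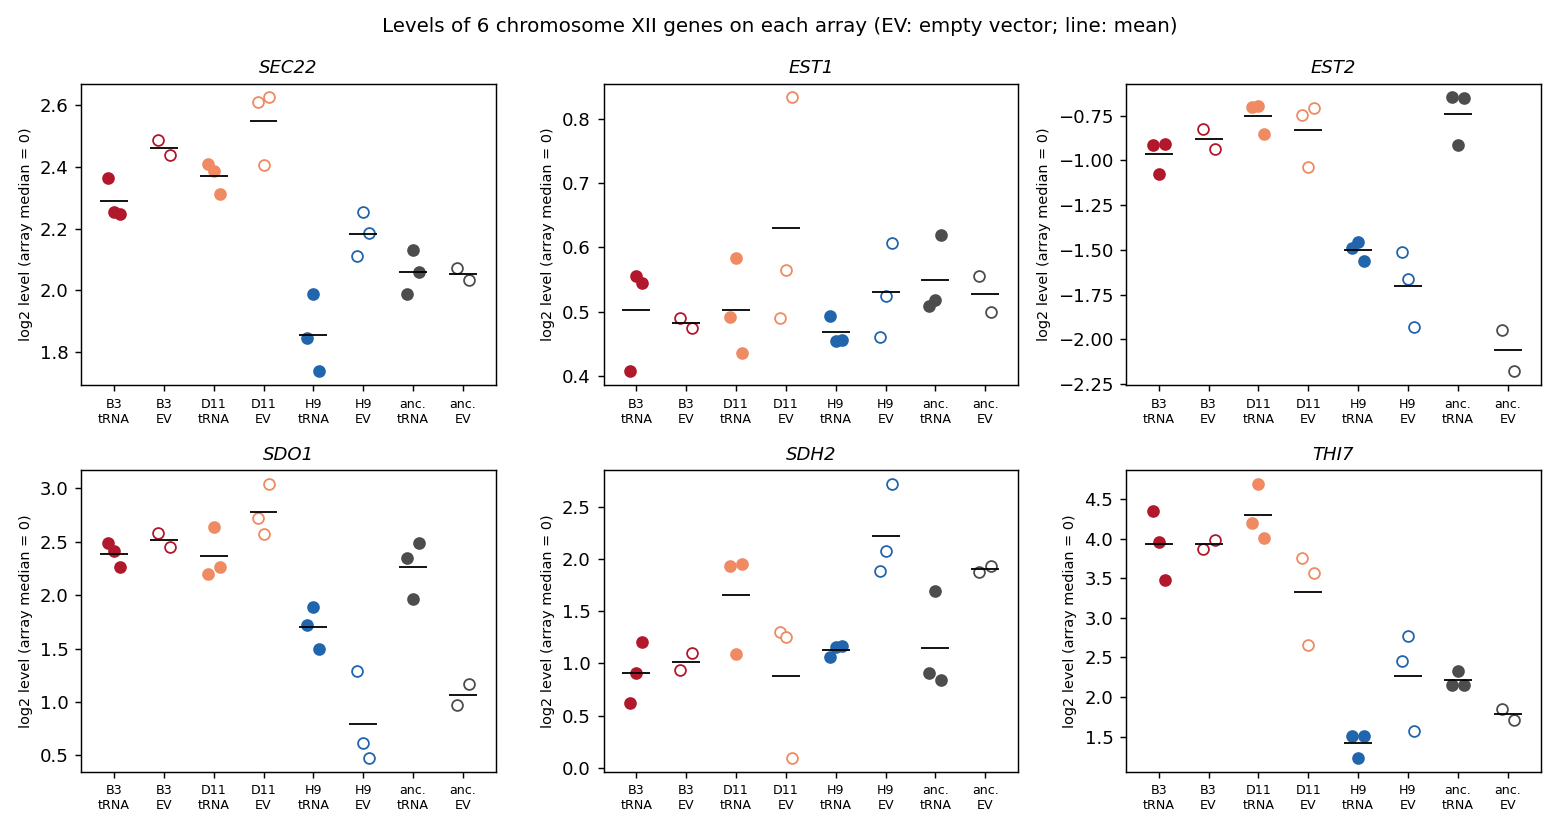
Log2 level relative to the array median, on each of the 22 arrays, of 6 chromosome XII genes; filled points carry the tRNA, open points the empty vector, and lines are group means. SEC22 followed the chromosome in B3 and D11, and EST1 stayed between 0.41 and 0.83 in all groups. With the empty vector, EST2 and SDO1 rose beyond the chromosome in B3 against the ancestor and in D11 against H9. For EST2 in D11 against H9 this missed the threshold without the 3 arrays that stood apart. SDH2 was lower with the empty vector in B3 than in the ancestor and in D11 than in H9. THI7 was higher in B3 and D11 than in the ancestor.

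Genes of ribosome assembly had larger changes than the chromosome in cells with the EV, but not between D11 and H9 with the tRNA. The 27 listed genes had a median change of 1.21 in B3 against the ancestor with the EV, where 20 were called higher and 1 was past the threshold for departure. In D11 against H9 with the EV the median was 1.25, with 24 higher and 20 above the chromosome. Between D11 and H9 with the tRNA it was 0.20, with 2 higher. Without the 3 arrays the counts above the chromosome were 25 and 16 in the comparisons with the EV, and with the tRNA 14 genes lay below it. In H9 with the EV the array that stood apart had a median of -0.80 for these genes, relative to the ancestor with the EV, and the highest array had 0.25.

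SDO1, which matures the large ribosomal subunit, was above the chromosome in both comparisons with the EV. It had 2.58 and 2.45 in B3 against 0.97 and 1.17 in the ancestor, a change of 1.45 ± 0.24 (adjusted p = 0.00159) with a departure of 1.02 (adjusted p = 0.031). It had 2.72, 2.57 and 3.04 in D11 against 1.29, 0.62 and 0.47 in H9, a departure of 1.60 (adjusted p = 0.000155). With the tRNA, D11 had 2.20, 2.64 and 2.26 against 1.72, 1.89 and 1.5 in H9, and the departure was 0.19 (adjusted p = 0.713).

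BUD20 and FYV7, both needed for ribosome assembly, had departures of 1.58 in D11 against H9 with the EV (adjusted p = 0.00164 and 0.0037). With the tRNA their departures were -0.19 and -0.43 (adjusted p = 0.791 and 0.567). GPN3, a GTPase involved in assembling RNA polymerase II, and TAD3, a subunit of the tRNA adenosine deaminase, were above the chromosome in B3 and in D11. TAD3 had 1.65 and 1.72 in B3 against 0.58 and 0.60 in the ancestor with the EV, a departure of 0.67 (adjusted p = 0.012), and GPN3 one of 0.75 (adjusted p = 0.0301). DRS1, RIX7, SOF1, NOC3 and GRC3, which also act in ribosome assembly, were above the chromosome in D11 against H9 with the EV, with departures between 0.81 and 1.15. These rest in part on the H9 array that stood apart. Leaving out the 3 arrays gave departures of 0.57 for DRS1 and 0.70 for NOC3 (adjusted p = 0.0163 and 0.00751), whereas those of RIX7, SOF1 and GRC3 were 0.35, 0.47 and 0.47 and missed the threshold (adjusted p = 0.133, 0.0511 and 0.0651). For BUD20 and FYV7 they were then 1.11 and 0.99 (adjusted p = 0.00171 and 0.00388).

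The 18 ribosomal protein genes had smaller median changes than the assembly factors in the comparisons with the EV. Their median change was 0.32 in B3 against the ancestor with the EV, with 2 called higher, and 0.51 in D11 against H9 with the tRNA, with 8 called higher. Between D11 and H9 with the EV it was 0.87, with 17 called higher and 8 above the chromosome. RPL15A, for a protein of the large subunit, had 5.83 and 5.74 in B3 against 5.72 and 5.70 in the ancestor with the EV, a change of 0.07 ± 0.22 (adjusted p = 0.892). Genes for ribosomal proteins on the 11 other chromosomes had a median departure of 0.61 in D11 against H9 with the EV (75 genes), against 0.49 for those on chromosome XII.

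Respiratory genes as a group lay below the chromosome in the cells with the EV. The 14 listed genes had a median change of -0.08 in B3 against the ancestor with the EV, with 1 called higher and 4 below the chromosome, and -0.14 in D11 against H9 with the EV, with 3 called higher, 3 lower and 7 below the chromosome. Between D11 and H9 with the tRNA the median was 0.46, with 4 called higher. With the 3 arrays left out, 8 lay below in each of the comparisons with the EV.

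SDH2, the iron-sulfur subunit of succinate dehydrogenase, had 0.94 and 1.10 in B3 against 1.88 and 1.94 in the ancestor with the EV, and its departure was -1.32 (adjusted p = 0.045). It had 1.30, 1.25 and 0.09 in D11 against 1.88, 2.08 and 2.72 in H9 with the EV, a change of -1.35 ± 0.32 (adjusted p = 0.00524). The last value of each line is from an array that stood apart, and without the 3 arrays the change was -0.70 (adjusted p = 0.0262). The groups did not overlap in either comparison. COX12, a subunit of cytochrome c oxidase, had 1.00 and 0.82 in B3 against 1.30 and 1.16 in the ancestor, with a departure of -0.75 (adjusted p = 0.0176). Between D11 and H9 with the tRNA it rose, with 1.62, 1.70 and 1.57 against 1.01, 0.97 and 0.95 (adjusted p = 0.00444). ATP14, of the ATP synthase, and MSS51, an activator of COX1 translation, were below the chromosome with the EV, with departures between -0.72 and -0.52. This held in B3 against the ancestor and in D11 against H9. Without the 3 arrays, the departures in D11 against H9 were -0.39 for ATP14 and -0.69 for MSS51 (adjusted p = 0.0259 and 0.00207). Against the ancestor, ATP14 in D11 then departed by -0.15 and missed the threshold (adjusted p = 0.355).

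Genes of the same families elsewhere in the genome had median departures of like size for respiration, ribosome assembly and vesicle transport, but not for every family compared. In B3 against the ancestor with the EV, 7 genes on chromosome XII with COX, ATP, SDH or QCR symbols had a median departure of -0.71, against -0.62 for 30 such genes on the 11 other chromosomes. The 4 genes with UTP, RRP, NOP or NOC symbols, which act in ribosome assembly, had one of 0.60, against 0.78 for 33 elsewhere. Between D11 and H9 with the tRNA these were -0.32 and -0.39. Of genes with SEC, VPS or COP symbols, 12 on chromosome XII had a median departure of -0.01 in B3 against the ancestor and 41 elsewhere had one of 0.02. The 4 genes with LSM, PRP or SMX symbols had 0.46 in D11 against H9 with the EV, against 0.05 for 19 elsewhere. In B3 against the ancestor they had 0.38 against 0.20, and between D11 and H9 with the tRNA -0.04 against -0.06. Ribosomal protein genes had -0.10 against 0.10 elsewhere in B3 against the ancestor, and 0.04 against 0.28 between D11 and H9 with the tRNA.

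Some stress genes lay below the chromosome in the cells with the EV. Of the 13 listed chaperone and stress genes, 2 were below it in B3 against the ancestor and 4 in D11 against H9, whereas 9 were called higher in D11 against H9 with the tRNA. TMA10, a stress-induced gene, had -1.40 and -1.51 in B3 against 0.46 and 0.60 in the ancestor with the EV, a change of -1.98 ± 0.62 (adjusted p = 0.0422). TFS1, an inhibitor of vacuolar carboxypeptidase Y, had -0.21 and -0.12 against 1.03 and 1.04, with a departure of -1.62 (adjusted p = 0.0396). SYM1, an inner mitochondrial membrane protein outside that list, had -1.78 and -1.78 against -0.66 and -0.77, with a departure of -1.49 (adjusted p = 0.0217). None of the 3 had overlapping groups. UBI4, the polyubiquitin gene, departed by -1.14 in D11 against H9 with the EV (adjusted p = 0.00239). It had 1.48, 1.51 and 0.74 in D11 and 1.71, 1.66 and 2.65 in H9, where the last value of each is from an array that stood apart, and without the 3 arrays the departure was -0.61 (adjusted p = 0.00889) and the change -0.19 (adjusted p = 0.333).

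**Figure D5:**
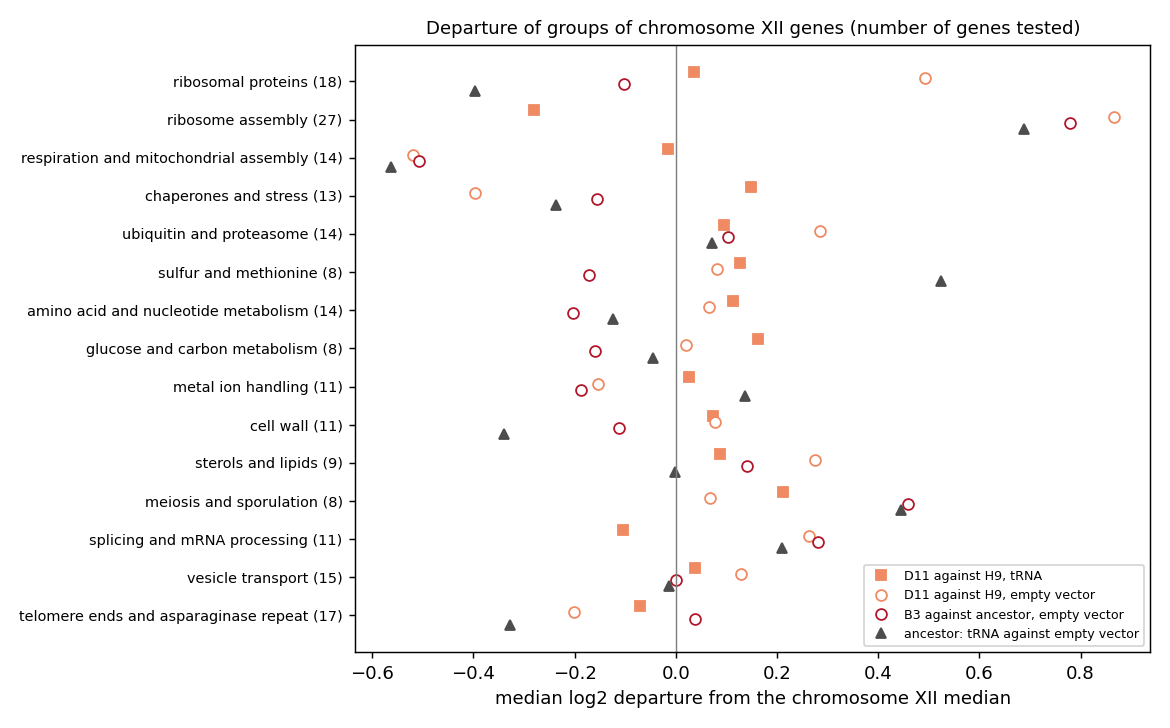
Median log2 departure from the chromosome XII median for 15 groups of its genes, in 4 comparisons: D11 against H9 with the tRNA and with the empty vector, B3 against the ancestor with the empty vector, and the ancestor with the tRNA against the empty vector. Ribosome assembly lies at 0.69 to 0.87 in 3 comparisons and at -0.28 in D11 against H9 with the tRNA, respiration lies at -0.56 to -0.51 in the same 3 and at -0.02 in the other, and vesicle transport lies between -0.01 and 0.13.

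The genes furthest above the chromosome between D11 and H9 with the tRNA were transporters of vitamins and metals and a spore wall gene. THI7, the thiamine transporter, had 4.20, 4.69 and 4.0 in D11 against 1.51, 1.23 and 1.51 in H9, a change of 2.88 ± 0.30 (adjusted p = 2.4e-05), or 7.36-fold. It was also high in B3, with 3.87 and 3.98 against 1.85 and 1.72 in the ancestor with the EV, a change of 2.14 ± 0.37 (adjusted p = 0.00185). In the ancestor THI7 had 2.15, 2.33 and 2.15 on the arrays with the tRNA, where chromosome XII was shifted, against 1.85 and 1.72 with the EV. The departure there was 0.05 (adjusted p = 0.952). H9 had 2.46, 2.77 and 1.57 with the EV, all above its values with the tRNA. In D11 against H9 with the EV the departure was 0.68 (adjusted p = 0.11), and 0.17 without the 3 arrays that stood apart (adjusted p = 0.692).

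THI73, a permease thought to be under thiamine control, had -0.27, -0.42 and -0.34 in D11 against -2.77, -2.64 and -3.02 in H9 with the tRNA, a change of 2.47 ± 0.27 (adjusted p = 3.62e-05). CDA1 and CTR3 were named after their values were seen. CDA1, a chitin deacetylase of the spore wall, had -2.28, -2.60 and -2.36 in D11 against -4.53, -4.63 and -5.06 in H9, and changed by 2.33 ± 0.21 (adjusted p = 9.72e-06). The ancestor had -1.65, -1.45 and -1.61 with the tRNA and -2.58 and -2.76 with the EV, so that D11 lay below the ancestor with the tRNA and H9 lay lower still. CTR3, a copper transporter, had -1.02, -1.01 and -1.06 in D11 against -2.97, -2.95 and -3.27 in H9, and changed by 2.03 ± 0.30 (adjusted p = 0.000388). The ancestor had -2.94, -2.60 and -2.58 of CTR3 with the tRNA. The D11 and H9 groups overlapped for none of these genes.

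In the ancestor, arrays with the tRNA were compared with those with the EV. Changes between them include the shift of the whole chromosome. Here 180 of the 515 genes were called higher and 8 lower, where 9.07% and 12.5% of all genes were called, and 23 lay above and 35 below the chromosome (6.18% and 8.46%). Without the 3 arrays these counts were 285, 21, 104 and 113, against 19.2%, 25.6%, 18.1% and 23% of all genes, and the last 2 are 20.2% and 21.9% of the 515. Leaving out either array of the ancestor with the EV gave 77 or 81 genes higher and 15 departing, and leaving out the first or the third array with the tRNA gave 36 or 25 departing. Of the 27 ribosome assembly genes 22 were called higher, with a median change of 1.07, whereas the 18 ribosomal protein genes had a median of -0.02.

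Of the 11 listed genes of metal ion handling, 5 were called higher and 1 lower in this comparison, with a median change of 0.52. The 4 genes given next were chosen for the size of their departures, not as a sample of iron genes. TIS11, which destabilises mRNAs of iron-using proteins, had -1.21, -2.29 and -1.52 with the tRNA against -3.65 and -3.63 with the EV, a change of 1.97 ± 0.28 (adjusted p = 0.000221). HMX1, the heme oxygenase, had 0.08, -0.29 and 0.01 against -1.73 and -1.70, a change of 1.65 ± 0.16 (adjusted p = 7.17e-06). FRE1, a ferric and cupric reductase, had 1.27, 2.08 and 1.24 against 2.81 and 2.81, a change of -1.28 ± 0.35 (adjusted p = 0.0167). ACO1, the iron-sulfur enzyme aconitase, had 3.32, 3.84 and 3.20 against 4.68 and 4.68, a change of -1.23 ± 0.15 (adjusted p = 6.83e-05). None of the 4 had overlapping groups.

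Of the 14 listed genes of amino acid and nucleotide metabolism, 4 were called higher and 3 lower in the ancestor with the tRNA, with a median change of 0.26. Chosen likewise for size, SHM2, the cytosolic serine hydroxymethyltransferase, changed by -1.17 ± 0.28 (adjusted p = 0.00824) and ADE13, the adenylosuccinate lyase of purine synthesis, by -1.12 ± 0.37 (adjusted p = 0.0419). SYM1 changed by -1.01 ± 0.32 (adjusted p = 0.0348). BMT6, a methyltransferase of ribosomal RNA, rose by 1.72 ± 0.43 (adjusted p = 0.0109) and BOP2, whose role is little known, by 1.90 ± 0.17 (adjusted p = 4.33e-06). YLR365W was not well above background in the ancestor with the EV. It was at least 2.35-fold higher with the tRNA, set against the lowest signal well above background on each dim array.

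The number of chromosome XII genes moved by the tRNA within an evolved line was small in B3, and depended on the arrays used in D11 and H9. In B3, 5 were called higher and 1 lower with the tRNA (0.829% and 0.237% of all genes), in D11 20 and 6 (2.45% and 0.913%), and in H9 25 and 24 (5.58% and 4.94%). Without the 3 arrays that stood apart, D11 had 51 and 38 (8.96% and 7.68%) and H9 had 80 and 55 (15.1% and 8.95%). PUT1, the proline oxidase, had -1.74, -1.70 and -1.75 in B3 with the tRNA against -3.29 and -3.14 with the EV, and changed by 1.49 ± 0.20 (adjusted p = 0.00115). It changed by 1.18 ± 0.18 in D11 (adjusted p = 0.00106), by 0.69 ± 0.18 in H9 (adjusted p = 0.0265) and by 1.52 ± 0.20 in the ancestor (adjusted p = 0.000108).

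CAR2, the ornithine transaminase of arginine breakdown, had 2.93, 2.72 and 2.84 in D11 with the tRNA against 1.42, 1.57 and 1.15 with the EV, and changed by 1.45 ± 0.16 (adjusted p = 5.27e-05). BNA5, the kynureninase of NAD synthesis, had 1.47, 1.48 and 1.31 in D11 with the tRNA against 0.01, -0.21 and 0.01 with the EV, and changed by 1.48 ± 0.11 (adjusted p = 1.19e-06). It was below the ancestor in D11 with the EV, by -1.65 ± 0.12 (adjusted p = 3.03e-07), where the ancestor had 1.62 and 1.56. TMA10, THI73 and ATG39, a receptor of nuclear autophagy, also rose with the tRNA in D11, by 2.13, 2.03 and 1.74.

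The response to the tRNA was also compared between each line and the ancestor. Tested as an interaction in limma, it differed from the ancestor's in 15 genes for B3 (0.863% of all genes), in 137 for D11 (16.3%) and in 19 for H9 (0.829%). These counts include the shift of the whole chromosome between the 2 groups of the ancestor. After the chromosome median was removed, 0 were past the threshold for B3, 46 for D11 and 1 for H9 (0.102%, 11.6% and 0.222% of all genes). The 46 genes are 8.93% of the 515, below the share of all genes. Both groups of D11 and 1 of H9 hold an array that stood apart, whose part in these counts was not tested.

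In H9 the genes named for the largest departures with the tRNA, over all arrays, act in ribosome assembly. Of the 27 listed genes, 11 were called higher and 13 lay above the chromosome, with a median change of 0.78. Without the 3 arrays these were 12 and 15, with a median change of 0.43. BUD20 had 3.23, 3.12 and 3.29 with the tRNA against 2.51, 2.33 and 1.34 with the EV, and changed by 1.16 ± 0.28 (adjusted p = 0.0208). FYV7 changed by 1.28 ± 0.32 (adjusted p = 0.0217). DRS1, a helicase of large subunit assembly, had 1.88, 1.77 and 1.71 against 1.25, 1.25 and -0.68, a change of 1.18 ± 0.37 (adjusted p = 0.0504) that missed the threshold. The lowest value of BUD20, of FYV7 and of DRS1 with the EV came from the array that stood apart. Without the 3 arrays these genes changed by 0.80, 0.98 and 0.53 (adjusted p = 0.00922, 0.00373 and 0.0198). The stress-induced gene TMA10 then rose further than any of them, by 1.10 (adjusted p = 0.0377).

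The calls depended on how bright a gene was, and the shift did so less. In B3 against the ancestor with the EV, 19.8% of the dimmest genes were called higher, 42.1% of the middle ones and 44.2% of the brightest (equal parts by mean level), with median changes of 0.41, 0.47 and 0.46. There were 35 tested genes with no entry in the current reference annotation (R64), most of them reading frames of doubtful status. Their median change was 0.67 in B3 against the ancestor with the EV, with 1 called higher, and 0.60 in D11 against H9 with the tRNA, with 9 called higher.

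The 17 genes of the telomere ends and the asparaginase repeat, which have near-identical copies, were uncertain in this respect, since a probe can report several copies. Their median change was 0.46 in B3 against the ancestor with the EV, with 7 called higher and 4 below the chromosome, and 0.40 in D11 against H9 with the tRNA, with 6 called higher. The Y′ element genes YRF1-4, YRF1-5 and YLL066C were below the chromosome in B3 and in D11 with the EV. Against H9 and without the 3 arrays, YRF1-4 and YRF1-5 in D11 missed the threshold (adjusted p = 0.0737 and 0.0887).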

How the data were processed

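Spot intensities were taken from the deposited Agilent Feature Extraction (10.7.3.1) output as the background-subtracted processed signal of 1-colour arrays. Control and outlier spots were left out, log2 values were centred on each array's median, and spots were averaged per probe and gene. Probes were kept where some group had them well above background on all of its arrays. Groups were compared with limma 3.58.1 (R 4.3.3), with 1 coefficient per group and Benjamini-Hochberg adjustment over all 5912 genes. Departures were fitted after subtraction, on each array, of the median of the genes on the same chromosome (5862 genes). The deposited series values, log2 values made by the authors (array medians 9.92 to 10.27), served as an alternative and their exact normalization is not given in the sources used here. Arrays, unlike counts, have no depth, and their number limits the precision. Slides matched the replicate numbers, and the slide of the third replicates, scanned on another day, held no array of B3 or the ancestor with the EV. Deviations of same-numbered arrays correlated between -0.56 and 0.60 (median 0.024, 71 pairs), so that numbers were not treated as pairs. The genes, gene lists and the rule for named genes (largest departures per comparison, calls shared by comparisons without common arrays, followers nearest the median, examples from each list and genes the study names) were chosen with earlier results of these data known. The analysis was tested on simulated data. Promoter and protein sequences were not used here.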

Additional observations from a re-analysis of the deposited data

Results flagged for a closer look

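The response of chromosome XII genes to the tRNA differed between each evolved line and the ancestor, tested as the interaction of line and plasmid in limma. For B3 it differed in 15 of 515 genes (0.863% of all genes), all with the lower response in B3, and at an unadjusted p below 0.05 the difference was lower in 176 and higher in 5. After the chromosome median was removed, it differed in 0 genes for B3 (0.102% of all genes). For D11 it differed in 137 genes, 128 of them with the lower response in D11 (16.3% of all genes), and in 46 after the chromosome median was removed (11.6% of all genes). For H9 it differed in 19 genes (0.829%), all with the lower response in H9, and in 1 after the chromosome median was removed (0.222%). The ancestor's response contains the shift of the whole chromosome between its 2 groups of arrays, 0.460 ± 0.024 (SD, n = 3) with the tRNA against 0 with the EV, whereas, relative to the 11 other chromosomes, chromosome XII differed between the tRNA and the EV by 0.00895 in B3, -0.00044 in D11 and 0.00896 in H9.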

How the results depend on the processing

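The direction of the shift held under all alternatives run. Against the ancestor with the EV it ranged over 0.375 to 0.528 for B3, 0.378 to 0.618 for D11 and -0.113 to -0.020 for H9, all with the EV. For the ancestor with the tRNA against that with the EV it ranged over 0.325 to 0.433. For D11 against H9 it ranged over 0.454 to 0.638 with the EV and 0.493 to 0.608 with the tRNA. With 1 array left out these ranges were 0.444 to 0.458, 0.456 to 0.539, -0.091 to -0.030, 0.357 to 0.381, 0.512 to 0.595 and 0.539 to 0.553. In that order, genes called higher (either direction for H9) then numbered 56 to 68, 166 to 268, 2 to 51, 77 to 178, 277 to 308 and 201 to 212, and departing genes 0 to 4 (limma; 65 at an unadjusted p below 0.05 without the second array of B3 or the second of the ancestor), 27 to 144, 15 to 63, 111 to 189 and 7 to 11, H9 aside. Without the 3 arrays that stood apart, chosen after seeing the data, the calls in B3, H9 and the ancestor numbered 303, 113 and 285, and departing genes 152 in B3, 189 in D11 and 217 in the ancestor, and 82 in D11 against H9 with the tRNA. Without the third replicates, departing genes were 102 in B3 and 99 in the ancestor, and calls in H9 were 73.

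With only the 2 groups compared in the fit, calls were 377 in B3, 121 in D11, and 0 in H9 (29 at an unadjusted p below 0.05 in limma) and 0 in D11 against H9 with the EV (269 likewise), and departing genes 251 in B3, 25 in D11, 132 in the ancestor, 0 in D11 against H9 with the EV (103 at an unadjusted p below 0.05) and 10 with the tRNA. In the order above, a minimum 2-fold change left 35, 55, 2, 36, 66 and 24 calls. Normexp on the median signal left 16 departing genes in B3, 11 in D11 against H9 with the tRNA, and 4 calls in H9. The chromosome mean left 13 departing genes in the last comparison, and a minimum 1.5-fold departure left 79 and 13 in D11 against H9 with the EV and the tRNA. The methods' t-test at its threshold gave 109 and 118 genes higher in D11 against the ancestor and H9 with the EV. After Benjamini-Hochberg it gave 63 and 0 in these, 0 in H9, 48 in the ancestor and 154 in D11 against H9 with the tRNA; at an unadjusted p below 0.05 it had 236 and 37 where it gave 0. With the replicate number as a block, calls in that order were 183, 262, 10, 179, 302 and 256 and departing genes 30, 113, 65, 148 and 16 (H9 aside); the block changed no count by over 1.5 times. Apart from settings named here, causes were not tested. Of 1700 values of named genes under alternatives, 1355 kept direction and side of the threshold, 333 lost the call, 12 gained one and 0 reversed.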
